A study of Mus musculus with 16 samples.

Results

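Dendritic cells grown from mouse bone marrow were compared with and without 6 h of lipopolysaccharide (LPS), by small RNA sequencing of mature miRNAs. All 8 libraries of the series that received no quercetin were used, out of 16 in all: 4 untreated control libraries and 4 LPS libraries. LPS is a component of the outer membrane of Gram-negative bacteria that is sensed by the receptor TLR4. It was given at 1 µg/mL on day 8 of culture. Cells came from 4 wild-type C57BL/6 mice, numbered 1 to 4, and each mouse gave a control and an LPS culture. Per the labels, the mice were 8 weeks old, apart from mouse 4 at 7 weeks, and male, with no sex given for LPS 2. Red cells were lysed before culture. Each group is a whole culture and not a sorted population, so more miRNA per cell and more cells of a type cannot be told apart. The other 8 libraries, from the same mice, were given the flavonol quercetin (25 µM, days 5 and 7), with or without LPS.

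A miRNA is cut from a hairpin precursor that yields a 5p and a 3p strand. A strand loaded into an Argonaute protein guides it to mRNAs through its seed, bases 2 to 8, and the mRNAs are repressed. The other strand, the passenger, is mostly degraded, so that its level is usually low. In myeloid cells TLR4 signals through NF-κB and AP-1, which switch on the genes of miR-155, known to promote dendritic cell activation, and of miR-146a, known to restrain the signal by targeting IRAK1 and TRAF6.

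The sequences below are those on which the results turn, with the seed in capitals, from RefSeq (GRCm38.p6). Of 568 miRNAs tested, 458 matched an entry by name. Both strands of the miR-155 hairpin are shown because they differed in their response, and miR-221 with miR-222 because their 3p strands share a seed.
miR-155-3p: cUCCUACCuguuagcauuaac
miR-155-5p: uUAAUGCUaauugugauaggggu
miR-221-3p: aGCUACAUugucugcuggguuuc
miR-222-3p: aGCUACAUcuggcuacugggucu
miR-221-5p: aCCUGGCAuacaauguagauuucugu
miR-129-5p: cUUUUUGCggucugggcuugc
miR-146a-5p: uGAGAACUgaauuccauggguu
miR-146b-5p: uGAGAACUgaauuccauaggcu
miR-27a-5p: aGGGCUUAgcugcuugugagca
miR-223-5p: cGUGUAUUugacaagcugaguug
miR-138-1-3p: cGGCUACUucacaacaccaggg

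The seed GCUACAU was held by miR-221-3p and miR-222-3p alone among the tested miRNAs that matched, and GAGAACU by miR-146a-5p and miR-146b-5p alone. The seeds of miR-155-3p, miR-155-5p, miR-129-5p, miR-27a-5p, miR-223-5p and miR-138-1-3p were each held by 1 tested miRNA that matched. miR-222-5p is named only.

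Libraries held 8660267 to 12529118 counts in the control group and 10096639 to 13943904 in the LPS group, which did not pass an exact permutation test (two-sided p = 0.229, n = 4 per group). Each library had 916 to 997 miRNAs with a count. The first principal component, with 35.7% of the variance, did not separate the groups. On it control 3 (15.4) and LPS 4 (10.2) stood apart from the other 6 libraries (-11.5 to 2.87). Control 3 also correlated with LPS 4 (r = 0.67) and control 4 with LPS 3 (r = 0.36) after group means were removed, across miRNAs, while their own pairs by mouse did not (-0.18 for mouse 3 and -0.16 for mouse 4). The mouse numbers that pair controls 3 and 4 with LPS 3 and 4 therefore go against the correlations. Whether the control or the LPS numbers are in doubt cannot be told. The labels were kept, so counts by mouse below rest on these numbers. The calls are given below without control 3 and LPS 4, and without controls 3 and 4.

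The miRNAs that dominate the profile were nearly the same in both groups. Of the 10 most abundant miRNAs of the control libraries, 9 were also among the 10 most abundant of the LPS libraries. There miR-10a-5p took the place of miR-142a-5p. These 10 held 67.7 to 70.5% of counts in control and 66.0 to 70.9% in LPS libraries. miR-22-3p, a miRNA abundant in myeloid cells, held 14.8% ± 2.40 of counts without and 13.5% ± 2.75 with LPS (SD, n = 4). miR-21a-5p, which is raised in many inflamed tissues, held 13.4% ± 2.91 and 12.2% ± 3.04. The next in order, miR-181a-5p, was at 9.18% ± 1.85 and 9.20% ± 0.994. Their differences were smaller than the spread between libraries.

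Of 568 miRNAs tested with edgeR, 3 rose with LPS at an adjusted p under 0.05 (0.528%) and 0 fell (0.0%). With DESeq2 5 passed as higher and 1 as lower; with limma-voom these counts were 2 and 1. At an unadjusted p under 0.05, edgeR gave 12 higher (2.11%) and 14 lower (2.46%). In 12 miRNAs (2.11%) all 4 LPS libraries lay above all 4 controls, and in 6 (1.06%) all 4 lay below. Within mice, 29 miRNAs (5.11%) were higher with LPS in 4 of 4 and 14 (2.46%) were lower in 4 of 4. For 4 against 4 libraries, lack of overlap corresponds to a two-sided exact permutation p of 0.0286, before any adjustment. Lack of overlap, or the same direction in 4 of 4 mice, is thus no call by itself, here and below. The 3 miRNAs that rose were miR-155-3p, miR-222-5p and miR-129-5p. Fold changes are on the scale set by TMM (a scaling to the bulk of miRNAs), on which the median log2 fold change of all miRNAs was 0.02. With scaling by library size alone that median was -0.13.

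**Figure D1:**
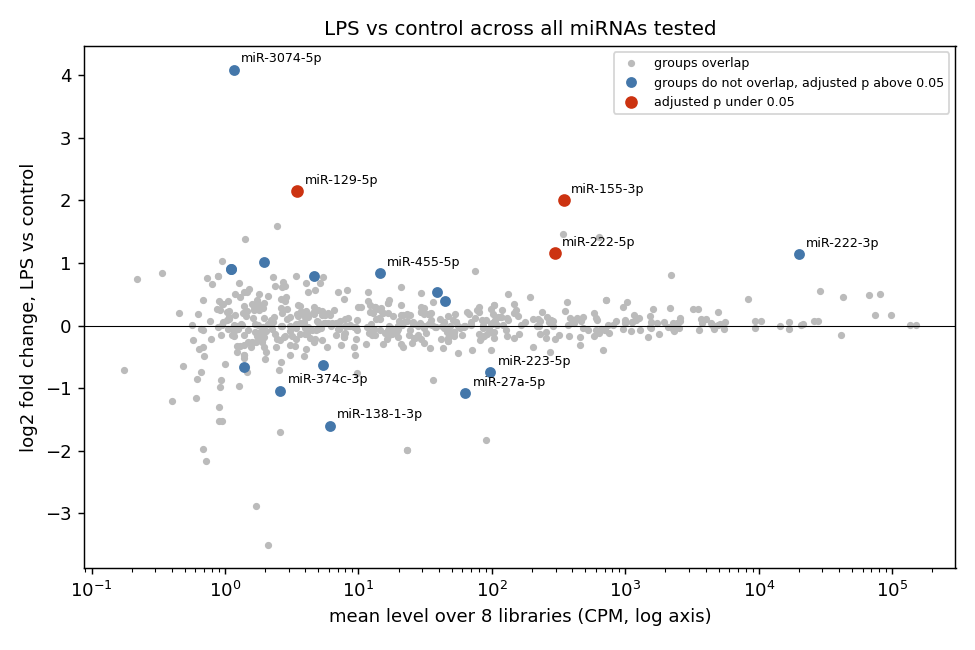
Log2 fold change of LPS against control (vertical axis) and mean level over the 8 libraries in CPM (horizontal log axis) for each of the 568 miRNAs tested. Red points passed an adjusted p of 0.05 by edgeR, blue points did not pass but had groups that did not overlap, and grey points had overlapping groups; most points sit near 0, and miR-155-3p, miR-222-5p and miR-129-5p are the red ones.

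The passenger strand of the miR-155 hairpin rose. miR-155-3p was at 154.2, 214, 92.8 and 94.0 CPM in controls 1 to 4, and at 606, 797, 389 and 430.7 CPM in LPS 1 to 4 (CPM are counts scaled to a common library total, with TMM scaling here and below). Each LPS library lay above every control, and within the LPS group mice 1 and 2 were the highest. The log2 fold change was 2.00 ± 0.35 (SE; 95% interval 1.27 to 2.73; adjusted p = 0.0106 by edgeR), or from 139 ± 57.6 to 556 ± 186 CPM (SD, n = 4).

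The main strand of the same hairpin did not pass. miR-155-5p, the strand that carries most of the known functions of miR-155, was at 22196, 43209, 49322 and 29923 CPM in controls 1 to 4. With LPS it was at 50719, 50683, 31809 and 66439 CPM. By the labelled mouse numbers it was thus higher in 3 of 4 mice. LPS 3 lay below controls 2 and 3, and the groups overlapped. This was a log2 fold change of 0.46 ± 0.30 (95% interval -0.17 to 1.10; unadjusted p = 0.143), which is an interval that holds both no change and a 2-fold rise. miR-155-5p was among the 10 most abundant miRNAs without LPS, at 3.51% ± 0.947 of counts, and was at 4.37% ± 1.04 with it (SD, n = 4).

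The balance of both strands within the hairpin was then compared. For 100 counts of miR-155-5p there were 0.695, 0.494, 0.188 and 0.314 counts of miR-155-3p in controls 1 to 4, and 1.19, 1.57, 1.22 and 0.648 in LPS 1 to 4. The ratio was higher in 4 of 4 mice, though LPS 4 lay just below control 1. The ratio of strands does not depend on how libraries are scaled. Its log2 difference was 1.55 ± 0.38 (SE; 95% interval 0.75 to 2.35), with an adjusted p of 0.108 by limma over 150 hairpins whose strands were both tested. With single libraries left out it ran from 0.0214 (without control 1) to 0.581 (without control 3), and it was under 0.05 in 2 of 8 such fits, the other being without LPS 4 (0.0362). It was 0.302 on the control and LPS libraries alone, and 0.0399 (limma) with the mouse as a replicate block, which rests on the mouse numbers that go against the correlations for mice 3 and 4. Of the 150 hairpins, 0 passed without the block (0.0%), and 7 had an unadjusted p under 0.05 (4.67%).

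**Figure D2:**
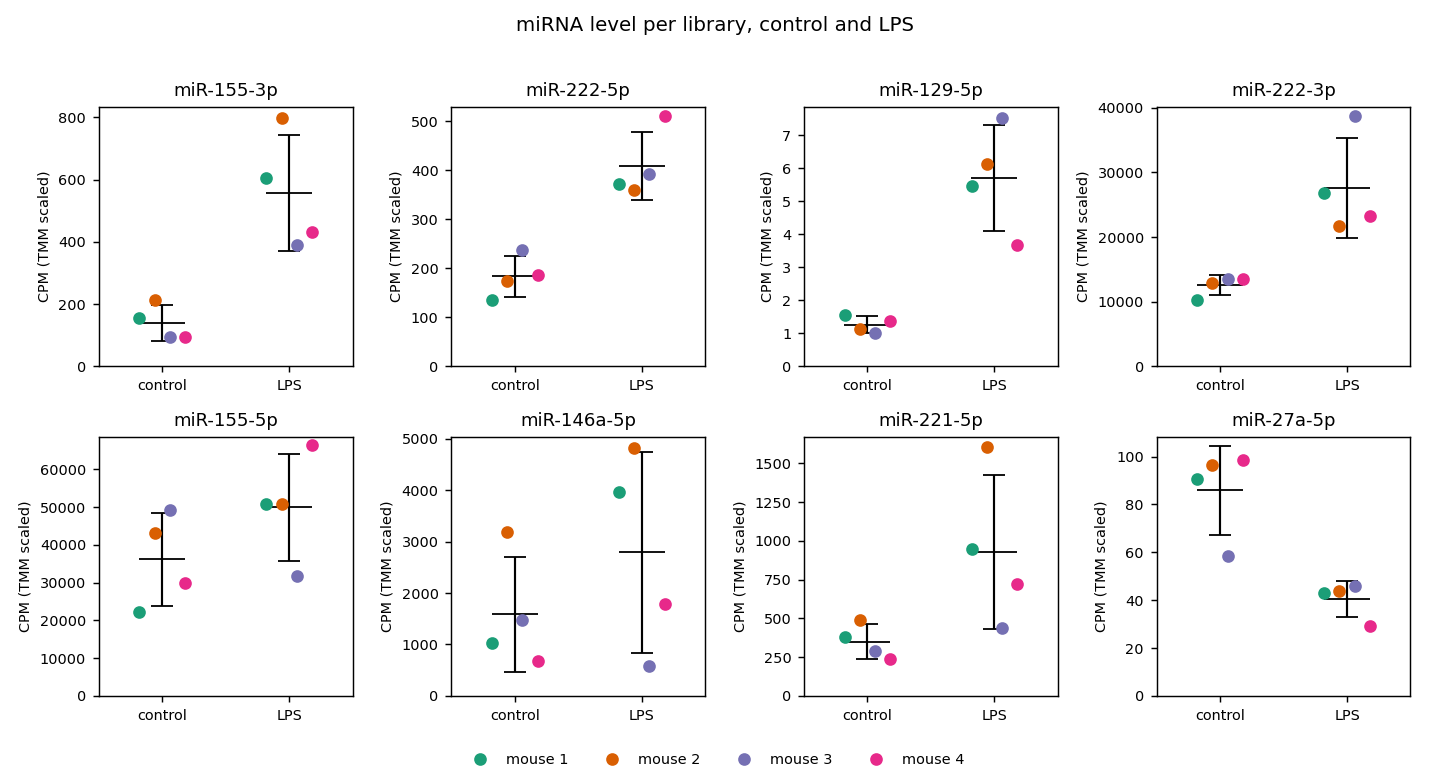
Level of 8 miRNAs per library in CPM with TMM scaling (vertical axis from 0), for 4 control and 4 LPS libraries, with points coloured by mouse and bars at the mean and SD. miR-155-3p, miR-222-5p, miR-129-5p, miR-222-3p and miR-27a-5p have groups that do not overlap, while those of miR-155-5p, of miR-146a-5p and of miR-221-5p overlap.

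All 4 strands of the cluster of miR-221 and miR-222, a pair of hairpins on the X chromosome known to target the cell cycle inhibitor p27 and the receptor Kit, were higher with LPS at an unadjusted p under 0.05, and 1 passed the adjusted threshold. Over all 568 miRNAs these shares were 2.11% and 0.528%. That was miR-222-5p, the minor strand. It was at 135, 175, 238 and 186 CPM in controls 1 to 4 and at 372, 359, 392 and 510 CPM in LPS 1 to 4. The groups did not overlap. On the log2 scale the difference was 1.15 ± 0.21 (SE; 95% interval 0.72 to 1.59; adjusted p = 0.0106 by edgeR), or 184 ± 42.6 to 408.5 ± 69.2 CPM (SD, n = 4). The call was lost in edgeR with upper quartile scaling (adjusted p = 0.0579), library size scaling (0.0606) and no filter on low counts (0.0868). It was also lost on the control and LPS libraries alone, without the mouse as a block (0.100) and with it (0.129).

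The main strand, miR-222-3p, gave a difference of the same size and did not pass. It was at 10325, 12825, 13505 and 13560 CPM in controls 1 to 4 and at 26770, 21732, 38695 and 23226 CPM in LPS 1 to 4. The groups did not overlap, with LPS 3 the highest. Its log2 fold change was 1.14 ± 0.26 (95% interval 0.58 to 1.69; adjusted p = 0.0730 by edgeR), while DESeq2 gave an adjusted p of 0.0126.

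miR-221-5p was at 381.05, 491, 287 and 235 CPM in controls 1 to 4 and at 945, 1604, 439 and 719 CPM in LPS 1 to 4. It was higher in 4 of 4 mice, but LPS 3 lay below control 2. The log2 fold change was 1.41 ± 0.43 (adjusted p = 0.306 by edgeR), and 0.95 without LPS 2. For miR-221-3p the levels were 6799, 6318, 8622 and 6817 CPM without and 9176, 8212, 9619 and 11251 CPM with LPS. This was the smallest difference of the cluster, at 0.42 ± 0.20 (unadjusted p = 0.0482, adjusted p = 0.965 by edgeR).

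miR-221-3p and miR-222-3p carry the same seed, GCUACAU, so their levels were added. The sum was 17124, 19142, 22127 and 20378 CPM in controls 1 to 4, and 35946, 29944, 48315 and 34477 CPM in LPS 1 to 4. Every LPS library lay above every control, at 19693 ± 2105 against 37171 ± 7856 CPM (SD, n = 4). The strand ratio of miR-222 was nearly level, at 1.45 ± 0.210 counts of 5p per 100 of 3p without and 1.56 ± 0.497 with LPS. For miR-221 it was 5.04 ± 2.10 and 10.2 ± 6.67 (log2 difference 3p over 5p -0.89 ± 0.41, unadjusted p = 0.0438 by limma). LPS 2 was at 19.5 per 100, against 4.56 to 10.3 in the other LPS libraries, and without it the difference was -0.50.

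miR-129-5p, a miRNA best known from brain and from tumours in which its genes are silenced, rose at a low level. It was at 1.55, 1.13, 1.00 and 1.39 CPM in controls 1 to 4 and at 5.48, 6.14, 7.53 and 3.68 CPM in LPS 1 to 4, means of 13.8 and 63.8 counts per library. The groups did not overlap. This was a log2 fold change of 2.15 ± 0.42 (SE; 95% interval 1.26 to 3.04; adjusted p = 0.0179 by edgeR). The call was lost with library size scaling (0.0961), with limma-voom (0.0694) and with the mouse as a block on the control and LPS libraries alone (0.0777). miR-129-2-3p, a 3p strand of one of the miR-129 hairpins, was at 0.787 ± 0.393 CPM without and 2.03 ± 1.32 CPM with LPS (unadjusted p = 0.0405, adjusted p = 0.965 by edgeR). It was higher in 4 of 4 mice.

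None of the 3 calls held in every fit that left out a library. Leaving out single libraries in turn, miR-155-3p passed in 3 of 8 fits, miR-222-5p in 2 and miR-129-5p in 1, with log2 fold changes of 1.72 to 2.23, 0.98 to 1.24 and 1.93 to 2.25. The libraries whose removal ended the call were controls 1, 3 and 4 and LPS 1 and 2 for miR-155-3p, all but control 3 and LPS 3 for miR-222-5p, and all but LPS 4 for miR-129-5p. Without control 3 and LPS 4 together only miR-222-5p passed (adjusted p = 0.0426 by edgeR). Without controls 3 and 4, 0 of 599 miRNAs passed by edgeR and 23 had an unadjusted p under 0.05, with adjusted p-values of 0.346, 0.0653 and 0.346 for miR-155-3p, miR-222-5p and miR-129-5p.

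The 29 tested miRNAs on a list of miRNAs known to be induced by LPS in myeloid cells, out of 31 in the table, were then described by role. The list was chosen with earlier results of these data known, so its counts are descriptive and no independent test. Of these, 2 rose (miR-155-3p and miR-222-5p) and 0 fell, against 0.528% and 0.0% of all miRNAs. At an unadjusted p under 0.05, 6 were higher and 0 lower, against 2.11% and 2.46%. The log2 fold change was positive in 23 and negative in 6, with a median of 0.26, beside 0.02 for all miRNAs tested. Of the 6 at an unadjusted p under 0.05, 4 were the strands of miR-221 and miR-222, and the other two were miR-155-3p and miR-125a-3p.

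**Figure D3:**
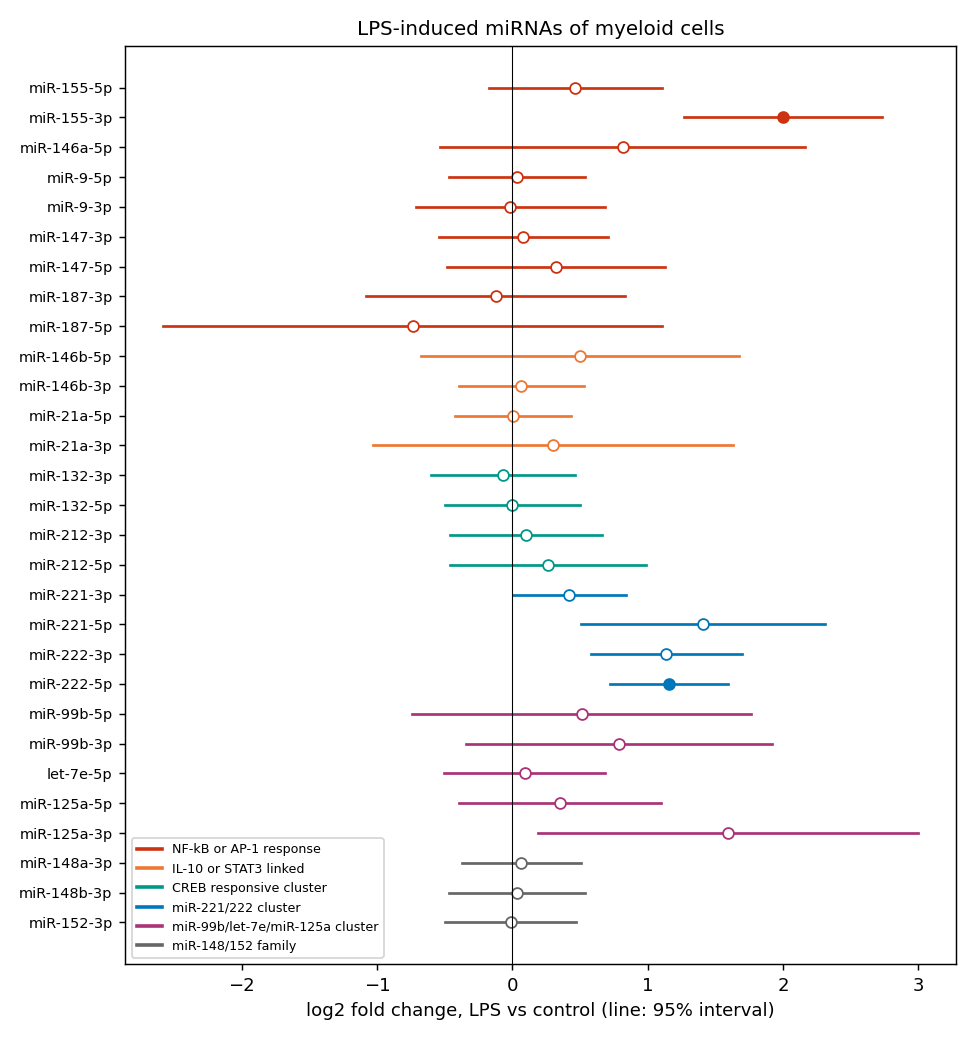
Log2 fold change of LPS against control with its 95% interval (horizontal axis) for the 29 tested miRNAs known to be induced by LPS, coloured by role. Filled points passed an adjusted p of 0.05 by edgeR; these are miR-155-3p and miR-222-5p, and the 4 strands of miR-221 and miR-222 are the only role whose intervals all lie above 0.

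Among the 9 miRNAs of the NF-κB and AP-1 response, 1 passed and the median log2 fold change was 0.08. miR-146a-5p was at 1020, 3180, 1474 and 668.96 CPM in controls 1 to 4 and at 3972, 4825, 579 and 1780 CPM in LPS 1 to 4. It was higher in 3 of 4 mice, but LPS 3 had the lowest level of all 8 libraries. On the log2 scale the difference was 0.81 ± 0.64, with a 95% interval of -0.53 to 2.16 (adjusted p = 1.00 by edgeR). It was 1.37 without control 2, 0.50 without control 4, 0.54 without LPS 1 and 0.37 without LPS 2. Its passenger, miR-146a-3p, was too low to be tested, at 4, 0, 1 and 0 counts in controls 1 to 4 and 17, 4, 12 and 10 counts in LPS 1 to 4.

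miR-147-3p, known to be induced by TLR signals in macrophages, was at 2488 ± 616 CPM without and 2631 ± 324 CPM with LPS. Its 95% interval ran from -0.54 to 0.71 on the log2 scale. miR-9-5p, reported to target NFKB1, was at 1698 ± 203 and 1739 ± 343 CPM, with an interval from -0.47 to 0.54. Neither passed, and both intervals leave out a 2-fold rise.

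Of the 4 strands linked to IL-10 or STAT3, 0 passed (0.528% higher and 0.0% lower over all 568 miRNAs), with a median of 0.18. miR-146b-5p, which has the seed of miR-146a-5p, was at 44582, 98027, 95135 and 31077 CPM in controls 1 to 4 and at 118019, 159805, 21714 and 80618 CPM in LPS 1 to 4. As for miR-146a-5p, LPS 3 was the lowest library and, by the labelled mouse numbers, mice 1, 2 and 4 were higher with LPS. Its log2 fold change was 0.50 ± 0.56 (95% interval -0.68 to 1.68), and 0.19 without control 4, 0.33 without LPS 1, 0.09 without LPS 2 and 0.80 without LPS 3. miR-21a-5p differed by 0.00 ± 0.20 (95% interval -0.42 to 0.43), at 134877 ± 22572 and 135252 ± 22451 CPM.

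The CREB-responsive pair miR-132 and miR-212 share the seed AACAGUC in their 3p strands. Of their 4 strands 0 passed (0.528% higher and 0.0% lower over all 568 miRNAs), with a median of 0.05. miR-132-3p was at 1326 ± 501 CPM without and 1266 ± 332 CPM with LPS (log2 fold change -0.07 ± 0.25, 95% interval -0.60 to 0.46). miR-212-3p was at 213 ± 61.2 and 228 ± 74.0 CPM (0.10 ± 0.27). A 2-fold rise lies outside both intervals.

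The cluster of miR-99b, let-7e and miR-125a is described as rising in LPS-treated macrophages. It had 0 of 5 tested strands past the threshold (0.528% higher and 0.0% lower over all 568 miRNAs) and a median of 0.51. miR-99b-3p was the one whose groups did not overlap, at 1.70 to 4.76 CPM in controls and 5.15 to 6.53 CPM in LPS libraries, with a wide interval (-0.34 to 1.92). miR-125a-3p, a passenger, differed by 1.59 ± 0.66 (unadjusted p = 0.0283, adjusted p = 0.944 by edgeR) and was higher in 3 of 4 mice. The main strands let-7e-5p (0.09 ± 0.28) and miR-125a-5p (0.35 ± 0.35) were within the spread. The 3 tested strands of miR-148a, miR-148b and miR-152, reported to rise in TLR-activated dendritic cells, had a median of 0.04.

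The 8 miRNAs described as falling after TLR4 stimulation had 0 past the threshold in either direction. Over all 568 miRNAs 0.528% rose and 0.0% fell, so a count of 0 is near that share. Their median was 0.02, with a range of -0.12 to 0.15. miR-223-3p, the major miRNA of granulocytes, was at 2397 ± 640 CPM without and 2268 ± 331 CPM with LPS, and miR-125b-5p, which targets TNF mRNA, at 106.4 ± 34.4 and 97.7 ± 34.3 CPM. miR-181c-5p was at 1444 ± 307 and 1604 ± 392 CPM. No member was far from 0.

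The miRNAs that were lower with LPS did so without passing the adjusted threshold. miR-138-1-3p, singled out after its values were seen, was at 6.11, 12.5, 7.54 and 10.6 CPM in controls 1 to 4 and at 2.95, 2.73, 3.65 and 2.76 CPM in LPS 1 to 4. The groups did not overlap, and LPS libraries lay within a narrow range. The log2 fold change was -1.60 ± 0.38 (95% interval -2.40 to -0.79; adjusted p = 0.0735 by edgeR). It did pass by DESeq2 (adjusted p = 0.00163), by limma-voom (0.0358) and by edgeR on the 8 libraries alone (0.0308). With the mouse as a block on these 8 libraries it did not (0.110). It was the only miRNA called lower under any setting run.

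miR-27a-5p, the passenger of miR-27a, was at 90.5, 96.3, 58.3 and 98.5 CPM in controls 1 to 4 and at 43.1, 44.0, 45.9 and 29.3 CPM in LPS 1 to 4. Its groups did not overlap, and its log2 fold change was -1.08 ± 0.36 (unadjusted p = 0.00855, adjusted p = 0.420 by edgeR). The main strand, miR-27a-3p, was at 4473 ± 900 and 4494 ± 934 CPM, a difference of 0.01 ± 0.19. There were 1.96 ± 0.540 counts of 5p per 100 of 3p without LPS and 0.942 ± 0.314 with LPS, with groups that did not overlap (limma adjusted p = 0.719).

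miR-223-5p was at 91.9, 127.3, 145 and 122 CPM in controls 1 to 4 and 74.7, 82.0, 54.8 and 79.8 CPM in LPS 1 to 4. Every LPS library was below every control (log2 fold change -0.74 ± 0.26, unadjusted p = 0.0118, adjusted p = 0.479 by edgeR), while miR-223-3p differed by -0.08 ± 0.25. The strand ratio of miR-223 overlapped between groups, at 5.46 ± 2.06 counts of 5p per 100 of 3p without and 3.21 ± 0.308 with LPS. For miR-342 the 5p strand went with 4.36 ± 0.578 counts per 100 of 3p without and 2.79 ± 0.751 with LPS, without overlap (limma adjusted p = 0.906). For miR-374c, where 3p is the lower strand, the ratio was 19.1 ± 5.61 and 8.57 ± 1.97 per 100 of 5p (limma adjusted p = 0.719).

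**Figure D4:**
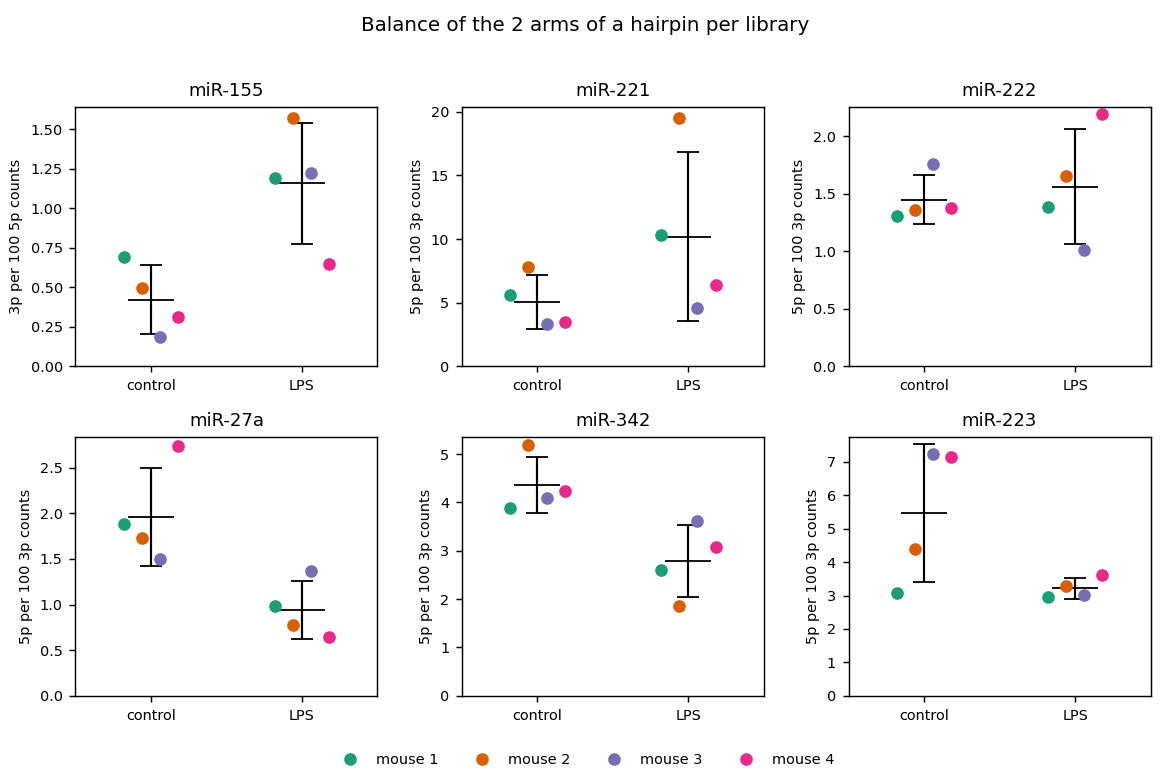
Counts of the minor strand per 100 counts of the main strand (vertical axis from 0) in 4 control and 4 LPS libraries for 6 hairpins, with points coloured by mouse and bars at the mean and SD. The minor strand of miR-155 lies higher with LPS in each mouse, those of miR-27a and miR-342 lie lower without overlap, and that of miR-222 overlaps fully.

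Strands at an unadjusted p under 0.05 were also counted as minor or major. Of the miRNAs at an unadjusted p under 0.05 whose hairpin had both strands tested, 5 of 7 higher and 5 of 6 lower ones were the minor strand, where 150 of the 300 strands of such hairpins are minor. The 5 higher and 5 lower ones were out of 150 minor strands, beside 2.11% and 2.46% of all 568 miRNAs. Of 150 major strands, 2 were higher and 1 was lower. The median log2 fold change was -0.01 over minor and 0.05 over major strands. Both strands of miR-221, of miR-222 and of miR-199a entered these counts. Strands of 1 hairpin are not independent of each other, and the count was not tested, so it is no result about minor strands.

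Further miRNAs had groups that did not overlap, as 2.11% (LPS above) and 1.06% (LPS below) of all 568 miRNAs did. miR-455-5p, from an intron of a collagen gene, was at 10.8, 10.3, 8.67 and 11.7 CPM without and 16.9, 17.2, 19.9 and 20.2 CPM with LPS (log2 fold change 0.84 ± 0.25, unadjusted p = 0.00395, adjusted p = 0.306 by edgeR). The groups were tight, with SDs of 1.26 and 1.76 CPM. miR-3074-5p, singled out after its values were seen, was at 0 to 0.309 CPM in controls and 0.317 to 4.68 CPM in LPS libraries. That is a mean of 0.109 and 2.22 CPM, and it passed by DESeq2 (adjusted p = 0.00655) but not by edgeR (0.210). Of the others, miR-7043-3p was higher at 31.7 ± 1.40 and 45.9 ± 8.84 CPM, and miR-26a-2-3p lower at 6.65 ± 0.414 and 4.29 ± 1.24 CPM.

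Several families that are abundant in these cells showed 0 members past the threshold in either direction. That is near the share over all 568 miRNAs (0.528% higher and 0.0% lower). The 9 let-7 miRNAs, which restrain growth genes, had a median log2 fold change of 0.04 and a range of -0.15 to 0.09. Their summed level was 52746 to 115467 CPM in control and 69560 to 96910 CPM in LPS libraries. The 22 tested members of the miR-17-92 and paralogous clusters, which promote proliferation, had a median of 6.9e-04, and the 12 of the miR-15/16 family, which restrain the cell cycle, one of -0.11. The miR-29 family (7 tested) had a median of -0.05 and the miR-30 family (11) one of -0.02. For the miR-34 family with miR-210 (8), induced by p53 and by low oxygen, the median was -0.01.

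In the miR-181 family 1 of 8 tested strands was lower at an unadjusted p under 0.05, where 2.46% of all 568 miRNAs were. This was miR-181b-1-3p (46.4 ± 14.2 to 25.5 ± 9.04 CPM, log2 fold change -0.87 ± 0.33), a passenger lower in 4 of 4 mice. In the miR-23/27/24 clusters 2 of 11 were lower at that level, miR-27a-5p and miR-23b-5p, both passengers, and the groups of miR-27a-5p and miR-23a-5p did not overlap. Of all miRNAs, 1.06% had every LPS library below every control. The Sfmbt2 intronic cluster, a rodent array of related miRNAs, had 0 of 44 tested strands at an unadjusted p under 0.05 and a median of 0.12. In 2 of the 44 every LPS library lay above every control, beside 2.11% of all 568 miRNAs. The imprinted Dlk1-Dio3 cluster had 0 of 12 at an unadjusted p under 0.05 and a median of 0.26. It had 53 names in the table, most of them too low to be tested. miR-369-3p of that cluster was at 4.93 ± 2.40 CPM without and 4.72 ± 2.21 CPM with LPS.

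Markers of cell types were measured beside these results. The 10 markers of myeloid and dendritic cells summed to 344632 to 451771 CPM in control and 388442 to 524449 CPM in LPS libraries. miR-223-3p and miR-142a-5p, which are restricted to blood cells, were detected in every library. Several others of the list are also made in many cell types. The 7 erythroid markers summed to 777 to 1773 and 866 to 2800 CPM, and the 6 lymphocyte markers to 996 to 1485 and 930 to 1355 CPM. The erythroid sum takes miR-486a and miR-486b as separate members, though their counts are equal. The 3 tested of 9 tissue miRNAs foreign to bone marrow summed to 5.85 to 17.6 and 7.14 to 10.8 CPM. No marker of these lists was at 0 in all 8 libraries, and 0 passed the threshold (0.528% higher and 0.0% lower over all 568 miRNAs).

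The summed level of the stromal, endothelial and epithelial markers differed between libraries of the control group, though not every member did so. The 14 tested members of this list, of 17, summed to 248 to 749 CPM in control and 247 to 317 CPM in LPS libraries. The log2 fold change was positive in 6 members (up to 0.40) and negative in 8, with a median of -0.66. At an unadjusted p under 0.05 by edgeR, 4 members were lower, beside 2.46% of all 568 miRNAs. The sum, the median and these counts take miR-199a-3p and miR-199b-3p as separate members, though their counts are equal. Among the 4 was also miR-199a-5p, the other strand of that hairpin. miR-199a-3p, a miRNA of fibroblasts whose counts equal those of miR-199b-3p in every library, was at 7.27, 19.2, 87.9 and 33.3 CPM in controls 1 to 4 and at 7.75, 7.79, 9.04 and 12.5 CPM in LPS 1 to 4. Control 1 lay below every LPS library, and control 3 was far above the rest. This was a log2 fold change of -1.99 ± 0.67 (adjusted p = 0.420 by edgeR), -1.18 without control 3 and -0.47 without controls 3 and 4.

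miR-143-3p, made by smooth muscle cells and fibroblasts, was at 15.6, 84.2, 349 and 110 CPM in controls 1 to 4 and at 37.8, 32.7, 22.7 and 64.3 CPM in LPS 1 to 4. Here too control 3 was the highest and control 1 the lowest. The epithelial miR-200b-3p and miR-200c-3p did not follow. Summed with miR-429-3p, which has their seed, they were at 125 ± 17.6 CPM without and 135 ± 9.70 CPM with LPS (SD). The part of such cells in the results was not tested. The 3 miRNAs that rose, miR-155-3p, miR-222-5p and miR-129-5p, had log2 fold changes of 1.81, 1.24 and 2.00 without control 3. Their adjusted p-values by edgeR were then 0.0555, 0.0234 and 0.107, so only miR-222-5p passed.

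The same contrast could be read a second time in the quercetin libraries, which share no library with the controls and LPS group but come from the same mice. There, 2 miRNAs rose with LPS (0.352%) and 0 fell (0.0%) by edgeR, and 17 (2.99%) and 24 (4.23%) were higher and lower at an unadjusted p under 0.05. They were miR-155-3p and miR-222-5p again. miR-155-3p went from 48.1, 38.3, 55.6 and 45.5 CPM in quercetin libraries 1 to 4 to 334, 131, 186 and 274 CPM in quercetin plus LPS libraries 1 to 4. On the log2 scale the difference was 2.30 ± 0.35 (adjusted p = 0.00168), which differed from that without quercetin by 0.30 (95% interval -0.70 to 1.30).

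miR-222-5p was at 59.4, 57.4, 59.0 and 56.9 CPM with quercetin alone and at 194.6, 137, 170 and 183 CPM with quercetin plus LPS. Its log2 fold change was 1.56 ± 0.21 (adjusted p = 6.9e-04 by edgeR), and the difference of effects was 0.40 (95% interval -0.21 to 1.01). The 4 quercetin libraries lay within a narrow band and below every control. The log2 fold changes of miR-222-3p (0.88 ± 0.26), miR-221-5p (1.55 ± 0.43), miR-455-5p (0.70 ± 0.25) and miR-27a-5p (-1.22 ± 0.37) had the sign they had without quercetin. Their adjusted p-values by edgeR were 0.347, 0.308, 0.514 and 0.347, so none of these 4 passed.

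miR-129-5p did not pass there. It was at 11.1, 3.45, 9.53 and 4.08 CPM with quercetin alone, a range that spans that of the LPS libraries, and at 8.85, 8.59, 13.02 and 4.57 CPM with quercetin plus LPS. The log2 fold change was 0.32 ± 0.38 (adjusted p = 0.818 by edgeR). It differed from the effect without quercetin by -1.83 (95% interval -3.03 to -0.64; unadjusted p = 0.00491, adjusted p = 0.889 by edgeR). miR-223-5p, lower with LPS alone, was at 0.25 ± 0.26 with quercetin (difference 0.99, unadjusted p = 0.0160, adjusted p = 0.889). Across all 568 miRNAs the test of the difference gave 0 at an adjusted p under 0.05 (0.0%) and 26 at an unadjusted p under 0.05 (4.58%).

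**Figure D5:**
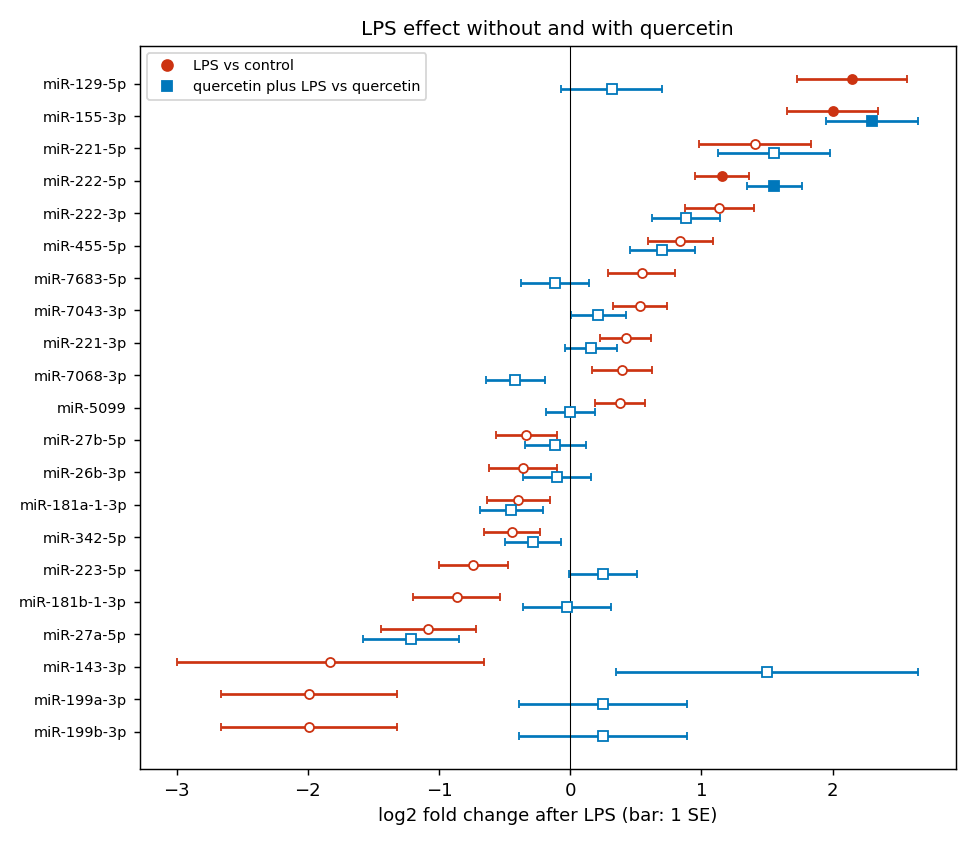
Log2 fold change with LPS, with bars of 1 SE, for 21 miRNAs in cells without quercetin (red circles) and with quercetin (blue squares); filled symbols passed an adjusted p of 0.05 by edgeR. miR-155-3p and miR-222-5p are filled in both, miR-129-5p is at 2.15 without and 0.32 with quercetin, and miR-223-5p lies on opposite sides of 0.

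The 95% intervals left out a 2-fold change either way for most of the abundant miRNAs and for few rare ones. The intervals do not show whether a true 2-fold change would pass the adjusted threshold. The 95% interval had a median width of 0.73 on the log2 scale to each side over all 568 miRNAs, and of 0.53 for the 66 above 1000 CPM. It lay wholly within a 2-fold change either way for 314 miRNAs (55.3%), among them 55 of those 66. For the 42 under 1 CPM this held for 1, and their median was 1.29.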

How the data were processed

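Small RNA libraries of 8 bone marrow dendritic cell cultures (4 control, 4 LPS) were compared, with 8 quercetin libraries in the same fit. The deposited table holds raw counts per mature miRNA, as the authors counted them. Per the labels' protocols, miRNeasy and TruSeq Small RNA kits were used. Per the submitters' processing notes, cutadapt and the mouse build mm9 were used; the aligner, versions and counting rule are not given in the sources used here. Sequences are from RefSeq on another build, so no coordinates are given.

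Of 1381 rows with 1377 names, 4 names stood on 2 rows and were summed, 1 row with text among its counts was left out, and so were 4 rows whose counts look exchanged between neighbours in the quercetin libraries (miR-6993-3p, miR-1839-5p, miR-700-3p and miR-654-3p). This left 1372 names. Among names with more than 200 counts over all 16 libraries, identical counts throughout were found for 32 names in 15 sets. Their reads cannot be assigned to a copy. The exchange does not touch control against LPS: miR-1839-5p had 4800 to 9706 counts in control and 5755 to 9565 in LPS libraries.

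The main test was the quasi-likelihood test of edgeR 4.0.16 (R 4.3.3) with TMM scaling. Low miRNAs were removed by filterByExpr, which left 568. The model had 4 group means and took in all 16 libraries, and p-values were adjusted after Benjamini and Hochberg over the 568 miRNAs. No test is stated in the labels. SEs are on the log2 scale. Strand balance was log2((3p + 0.5)/(5p + 0.5)) per library, tested with limma 3.58.1 over 150 hairpins with adjustment over these. DESeq2 1.42.0, limma-voom, other scalings and filters, and fits that leave out libraries were alternatives. Both test scripts were tested on simulated data with planted changes, and the outcome is not given here. Depth, the total count per library, was 8660267 to 13943904 in control and LPS libraries. In the quercetin libraries, with or without LPS, it was 6454535 to 9035375. Intervals are for the difference between group means and rest on the spread between libraries.

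miRNAs were named by a rule: all past the threshold, the 10 smallest p-values each way with a mean of at least 10 CPM, fixed LPS-related miRNAs, the 10 most abundant, up to 4 per list and 5 hairpins by p. Members and lists were chosen with earlier results of these data known, and other miRNAs named with values outside this rule were picked with their values in view. Labels number the samples by mouse, and equal numbers were treated as 1 animal, since the design text gives 4 mice. Deviations from group means correlated at 0.20, 0.61, -0.18 and -0.16 for mice 1 to 4. Libraries of a group are separate mice. A chi-square comparison of counts found no near duplicates.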

Additional observations from a re-analysis of the deposited data

Results flagged for a closer look

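Dixon's test at its 95% critical value was run on 120 groups of 4 libraries, and 8 groups had a library far from the other three. By chance about 1 in 20 groups would. LPS 4 was the distant library in 3 of them: miR-27a-5p at 29.3 CPM (the nearest library at 43.1), miR-27b-5p at 246 CPM (160) and let-7f-5p at 48216 CPM (37151). LPS 3 was low for miR-5099, at 833 CPM against 1234 CPM in the nearest, and LPS 2 high for miR-7068-3p, at 67.5 CPM against 46.9 CPM. Among controls, control 2 was low for miR-23a-5p (1.44 CPM, nearest 1.76) and control 3 was high for miR-145a-5p (3.27 CPM, nearest 0.606). Control 3 also had the lowest log2 ratio of 3p to 5p for miR-222 (5.82, nearest 6.18). Of the called miRNAs only miR-222-5p enters this list, through that ratio.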

How the results depend on the processing

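Under 22 settings for the test of single miRNAs, 2 of them chosen after seeing the data, the count of miRNAs higher with LPS was 3 with RLE scaling, with the replicate block on all libraries (mouse as a block), and with the 4 rows kept. On only control and LPS libraries without the block it was also 3. There miR-7086-5p (log2 fold change 2.22, adjusted p = 0.0445 by edgeR) passed and miR-222-5p did not. The count was 5 with DESeq2. With library size scaling, with the replicate block on only control and LPS libraries, and without control 3 and LPS 4 it was 1, and it was 0 without mouse 4 and without controls 3 and 4. Leaving out 1 library at a time gave 0 to 2. The count of lower miRNAs was 1 with DESeq2, limma-voom and only control and LPS libraries, each time miR-138-1-3p, and 0 when single libraries were left out. The count of differing LPS effects with quercetin was 0 in each setting run. For strand balance the count was 1 with the replicate block and 0 to 1 without single libraries, each time miR-155. On all 16 libraries the block changed no call of single miRNAs; on only control and LPS libraries it left miR-155-3p, and miR-222-5p and miR-129-5p did not pass. miR-222-5p did not pass in 7 of 14 settings other than leaving out single libraries, with adjusted p-values up to 0.229. The difference in mean total counts was 959540 to 2317795 without single libraries. No value that was called changed sign in these settings. The cause of these changes was not tested; the fits that leave out libraries have fewer samples. Precision limits rare miRNAs most: of 42 under 1 CPM, 1 had an interval within a 2-fold change.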

Other observations

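Among all names in the table, 2 were at 0 counts in at least 1 of the 8 libraries and at 100 or more in another. miR-24-2-5p had 0, 7094, 0 and 0 counts in controls 1 to 4 and 0, 9991, 5737 and 5000 counts in LPS 1 to 4, so that mouse 1 was at 0 in both groups and mouse 2 high in both. Its log2 fold change was 1.46 with an SE of 2.43. miR-127-3p, of the Dlk1-Dio3 cluster, had 190, 112, 0 and 6 counts in controls and 249, 145, 9 and 2 counts in LPS libraries 1 to 4, high in mice 1 and 2 in both groups. No miRNA was detected in all LPS libraries and in no control. The reverse held for 2 miRNAs, miR-6996-3p and miR-871-3p, at 1 to 5 counts.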
